A study of Homo sapiens with 12 samples.

Results

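Tumours of MDA-MB-231 cells treated with a p38 inhibitor and an EZH2 inhibitor together were compared with tumours treated with the p38 inhibitor alone. The comparison takes 6 of the 12 libraries of the series, 3 from the combination group and 3 from the p38i group, assigned by their treatment labels. MDA-MB-231 is an established human line of triple-negative breast cancer, and the labels describe injection of cells in 50 µl of Matrigel into a mammary fat pad of each mouse. Combination mice received SB202190, a p38 inhibitor, and the EZH2 inhibitor EPZ-6438 (tazemetostat), whose code the labels spell in 2 ways. P38i mice received SB202190 at 1 mg/kg/day. For the EZH2 effect without a p38 inhibitor, 3 EZH2i tumours (the EZH2 inhibitor at 10 mg/kg/day) and 3 control tumours were used. Control mice received the vehicle of 4% DMSO, 30% PEG 300 and 5% Tween 80. All groups were injected intraperitoneally 5 days a week once tumours measured 100 mm3, with 10 mice per group. The labels give neither the length of treatment nor the mouse strain, and they state no separate doses for the combination. A single cell line stands for the disease, and bulk tumour RNA was read against the human genome.

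EZH2 is the catalytic subunit of Polycomb repressive complex 2 (PRC2), which methylates lysine 27 of histone H3 and keeps target genes silent; EED and SUZ12 are its core partners. The p38 kinases relay stress and cytokine signals through kinases such as MK2 to transcription factors and to proteins that set the stability of inflammatory mRNAs. Both have been studied as drivers of invasion in triple-negative breast cancer. The title of the series places p38 signalling downstream of a phosphorylated form of EZH2. The comparison asks which transcripts differ when EZH2 is inhibited in tumours whose p38 is already inhibited.

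Library totals ran from 3115765 to 4467942 counts in combination tumours and from 2956275 to 4104159 in p38i tumours. Levels are given as CPM, the counts of a gene relative to the scaled total of its library. Spearman correlations of log2 CPM across genes were 0.966 to 0.979 within the combination group, 0.967 to 0.977 within p38i and 0.954 to 0.976 between them. Libraries carry the tumour codes of their titles, such as 8-1. In every group some codes share their first number, such as 9-1 and 9-2 in the combination. The labels do not say whether such samples came from separate mice, so p-values measure the spread between these samples, which may be technical. The labels give header column 5 to 2 p38i samples and column 6 to none. Both were used as p38i libraries, column 6 by elimination, and are called col5 and col6. Skeletal muscle transcripts set col6 apart: 17 markers held 0.00679%, 0.00707% and 0.01001% of the counts in combination 8-1, 9-1 and 9-2, against 0.00903% in p38i 3-3, 0.0158% in col5 and 0.227% in col6. The muscle markers held 0.0241% in control 1-1, above col5, against 0.00904% in control 1-3 and 0.00782% in control 2-1. EZH2i libraries held 0.00645% to 0.0104%. The 12 tumour cell markers had counts in every library and held 0.962% to 1.27% of combination counts and 1.03% to 1.12% of p38i counts.

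No transcript passed the threshold when the EZH2 inhibitor was added to the p38 inhibitor. Among the 30 genes named across the whole table, with a mean of at least 5 CPM and groups that did not overlap, the largest differences were those of SERPINA3, SERPINA5 and PTX3, which encode secreted proteins and were 5.81, 5.54 and 4.17 times higher in combination tumours, and SLC39A4, UGT2B7 and CCDC69, which were lower. Most MHC class II genes (7 of 8) and the transcription regulators ID1 and ID3 were on the higher side. The class II median log2 difference of 1.55 was 0.93 without combination 9-1. Combination 9-2 had a class II list median below every p38i tumour, and its ID3 level lay inside the p38i range. The class II list and both ID genes were lower in p38i than in controls. Heat shock genes (12 of 15) and histone genes (7 of 11) were mostly on the lower side, beside 48.6% lower among all genes. Oxidative phosphorylation genes had a similar share lower, 20 of 29. The histone median log2 difference of -0.49 was -0.26 without combination 9-1. Of the genes that EZH2i alone had changed against control, most stood on the opposite side between combination and p38i.

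Across 12514 genes tested, edgeR's quasi-likelihood test with Benjamini-Hochberg adjustment called 0 genes (0%), and the smallest adjusted p was 0.407. At an unadjusted p under 0.05, 441 genes were higher (3.52%) and 536 lower (4.28%) in combination tumours, 7.81% in both directions. Limma-voom also called 0 genes, while DESeq2 called 7 (0.056% of 12511), of which SERPINA3 and PTX3 were higher (0.016%) and 5 lower (0.04%), among them NARS, CCDC69, PFDN6 and SRF. The 3 combination libraries lay wholly above the 3 p38i libraries for 847 genes (6.77%) and wholly below them for 1024 (8.18%). Differences were small for most genes, with a median absolute log2 difference of 0.21 and a median standard error (SE) of 0.252. For 8468 genes (67.7%) the 95% interval of the difference lay within 2-fold in either direction, so that a larger change was outside the interval. The other genes were not measured precisely enough for that statement.

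**Figure D1:**
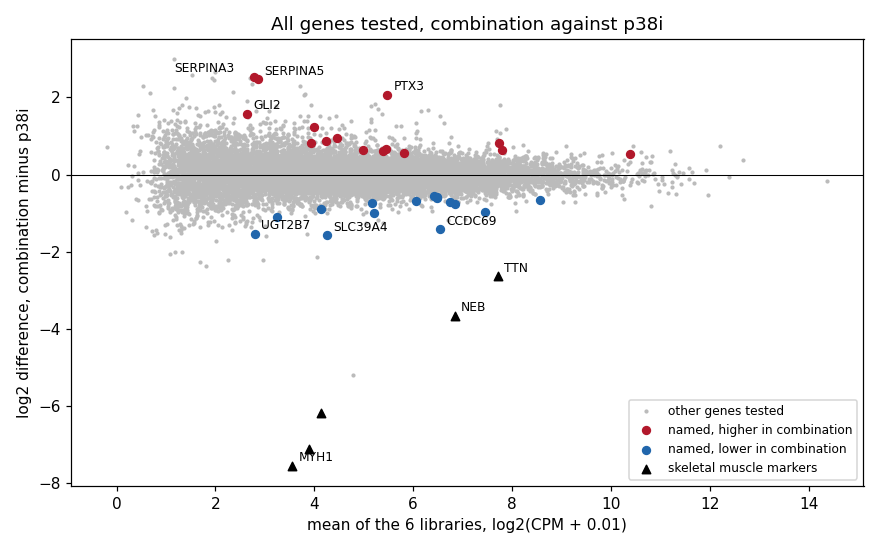
Log2 difference between combination and p38i (vertical axis) against the mean level of the 6 libraries as log2(CPM + 0.01) (horizontal axis), 1 point per gene tested, from the edgeR fit. Most genes lie within 1 log2 unit of 0, as do many of the 15 named genes higher in combination (red) and the 15 lower (blue). The named genes were chosen by unadjusted p among genes whose groups did not overlap, not by the size of the difference. The 5 skeletal muscle markers (triangles) lie far below, with most of their counts in p38i col6.

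SERPINA3 encodes alpha-1-antichymotrypsin, an acute-phase inhibitor of serine proteases. Its level was 11.7, 13.6 and 9.73 CPM in combination 8-1, 9-1 and 9-2, against 2.73, 1.66 and 1.71 in p38i 3-3, col5 and col6. By the rule for naming, all 3 combination tumours lay above all 3 p38i tumours, as they did for 847 genes (6.77%). The log2 difference was 2.54 (SE 0.435, 95% interval 1.61 to 3.46, edgeR adjusted p = 0.407). It held 40, 62 and 31 counts in the combination libraries and 8, 6 and 7 in the p38i libraries, so the p38i values rest on few counts. DESeq2 called it (adjusted p = 0.00234), and so did edgeR without a filter on low counts (adjusted p = 0.0037). Levels without the p38 inhibitor were 22.8, 10.7 and 7.86 CPM in EZH2i tumours and 19.1, 11.4 and 20.6 CPM in controls, which overlap each other and the combination. The low group was thus p38i, and p38i against control gave a log2 difference of -3.07 (edgeR adjusted p = 0.0142). That contrast uses the same p38i libraries through which the gene was chosen, so it is not separate evidence.

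SERPINA5, which encodes the protein C inhibitor, lies near SERPINA3 in a cluster of serpin genes on chromosome 14, with starts 31 kb apart. Its level was 16.4, 16.3 and 4.39 CPM in combination tumours, against 1.02, 3.04 and 2.45 CPM in p38i tumours. Combination 9-2 stood much closer to p38i than 8-1 and 9-1 did. The groups did not overlap, by the rule for naming, and the log2 difference was 2.47 (SE 0.626, edgeR adjusted p = 0.575). EZH2i tumours held 17.1, 5.97 and 3.93 CPM and controls 23.7, 15.3 and 32.00 CPM. The 250 bases before each gene start (RefSeq, GRCh38.p14, plus strand) are shown because these neighbouring genes had the largest differences of the named higher genes, with SERPINA3 at chr14:94612141-94612390 and SERPINA5 at chr14:94581176-94581425. Capitals mark a match to the STAT motif TTCNNNGAA, searched on both strands.
SERPINA3: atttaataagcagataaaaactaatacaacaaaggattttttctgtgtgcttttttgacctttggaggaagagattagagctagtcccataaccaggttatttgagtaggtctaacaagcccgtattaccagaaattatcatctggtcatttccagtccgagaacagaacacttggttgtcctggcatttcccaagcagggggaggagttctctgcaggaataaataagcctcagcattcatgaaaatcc
SERPINA5: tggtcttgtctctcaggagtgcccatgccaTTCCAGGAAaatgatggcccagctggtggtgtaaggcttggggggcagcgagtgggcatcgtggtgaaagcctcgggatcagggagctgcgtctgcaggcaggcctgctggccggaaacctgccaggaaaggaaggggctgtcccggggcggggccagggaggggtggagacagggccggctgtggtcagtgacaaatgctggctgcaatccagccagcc
The STAT motif occurred once before SERPINA5 and not in the SERPINA3 window, and the AP-1 motif TGANTCA in neither. Of 35116 promoter windows of 250 bases, 2306 (6.57%) held the STAT motif and 2308 (6.57%) the AP-1 motif. The SERPINA3 window held 2 CpG dinucleotides and the SERPINA5 window 8, against a median of 11 over all windows.

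PTX3 encodes the long pentraxin, a soluble recognition molecule of innate immunity. Its level was 34.3, 99.5 and 80.96 CPM in combination tumours, against 21.8, 14.1 and 15.9 CPM in p38i tumours, 17.9, 24.9 and 13.5 CPM in EZH2i tumours and 7.08, 9.01 and 19.2 CPM in controls. Combination 8-1 was the lowest of its group and still above every other tumour. The log2 difference was 2.06 (SE 0.403, edgeR adjusted p = 0.575, DESeq2 adjusted p = 0.00234). PTX3 therefore differed from the serpins in that p38i, EZH2i and control tumours were all low. GLI2, a transcription factor of Hedgehog signalling, was also highest in the combination, with 10.5, 8.37 and 9.100 CPM in combination tumours, 2.73, 4.14 and 2.45 CPM in p38i, 4.88, 3.98 and 5.24 CPM in EZH2i and 4.58, 2.702 and 3.32 CPM in control tumours. Its log2 difference was 1.57 (SE 0.342, edgeR adjusted p = 0.575).

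**Figure D2:**
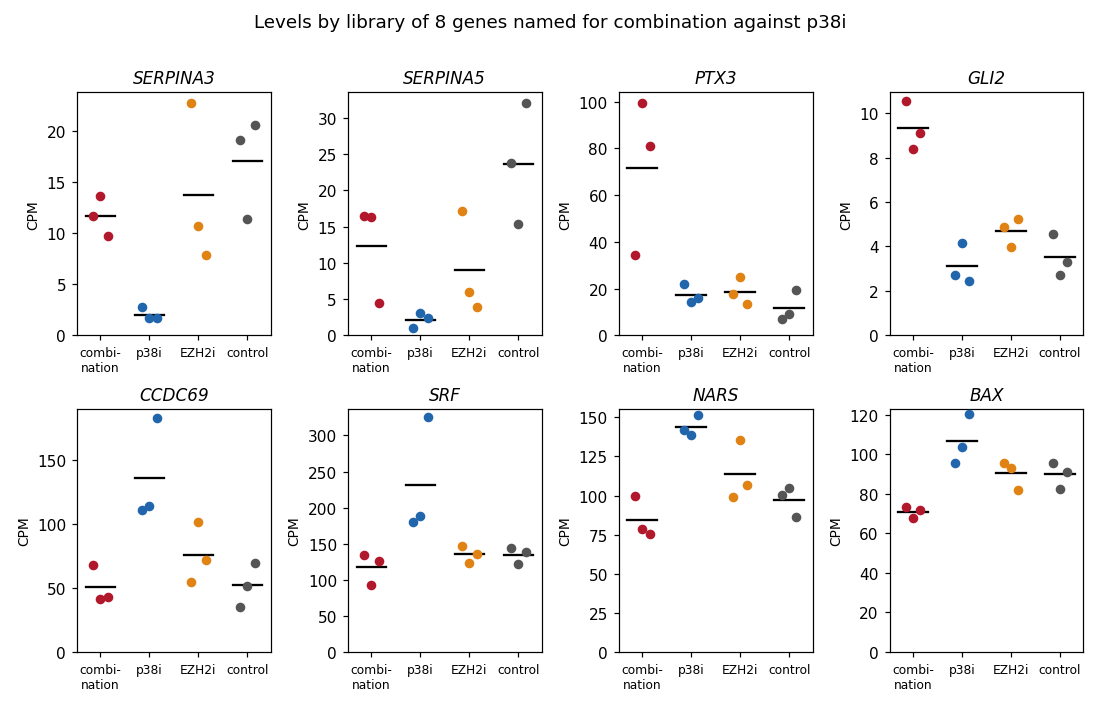
Level in CPM (vertical axes, each from 0) of 8 named genes in the 3 libraries of each group (points), with group means (lines); the groups are combination, p38i, EZH2i and control. SERPINA3 and SERPINA5 are lowest in p38i, PTX3 and GLI2 are highest in the combination, and for CCDC69, SRF, NARS and BAX the p38i tumours lie above the combination.

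The other 11 named genes on the higher side had an edgeR adjusted p of 0.575 each and, by the rule for naming, groups that did not overlap. FAM155A, an auxiliary subunit of the sodium leak channel, held 24.03, 27.5 and 21.3 CPM in combination tumours, against 12.95, 13.2 and 13.5 CPM in p38i tumours (log2 difference 0.88, SE 0.1996). BAHCC1, whose protein binds methylated lysine 27 of histone H3, held 31.4, 18.1 and 17.3 CPM in combination tumours, against 8.86, 9.11 and 10.3 CPM in p38i tumours (log2 difference 1.23, SE 0.341). Combination 8-1 was the highest for BAHCC1, and the p38i tumours lay within 2 CPM of each other for both genes. The caveolae coat genes CAV1 and CAV2 differed by 0.52 and 0.64 on the log2 scale. CAV2 held 230.0, 343 and 236 CPM in combination tumours, against 181, 170.0 and 169 CPM in p38i tumours, with combination 9-1 highest. The prion protein gene PRNP differed by 0.82, the lysophosphatidic acid receptor gene LPAR1 by 0.94, and NDP, which encodes the Frizzled ligand norrin, by 0.82. Smaller log2 differences were those of the ubiquitin ligase genes HERC3 (0.64), MID1 (0.61) and UBR7 (0.55) and of the membrane protein gene CMTM8 (0.65).

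Levels in tumours without the p38 inhibitor separated these genes. FAM155A held 15.4, 11.9 and 15.7 CPM in EZH2i and 36.6, 33.9 and 43.4 CPM in control tumours, so the combination lay between control and p38i. For BAHCC1 the corresponding levels were 14.2, 5.72 and 16.6 CPM in EZH2i and 30.8, 30.3 and 42.4 CPM in control tumours. UBR7, in contrast, held 64.5, 67.4 and 68.1 CPM in combination tumours, against 46.02, 41.7 and 48.9 CPM in p38i, 50.4, 49.7 and 57.2 CPM in EZH2i and 47.9, 48.04 and 47.9 CPM in control tumours. The combination was the highest group for UBR7, and EZH2i also lay above control and p38i without overlap. MID1 held 49.8, 42.5 and 58.7 CPM in combination tumours, against 33.4, 33.1 and 32.3 CPM in p38i tumours, and EZH2i (35.4 to 41.03) and control tumours (33.2 to 39.6) also lay below the combination.

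On the lower side, CCDC69, a coiled-coil protein of the mitotic spindle midzone, held 68.3, 41.4 and 42.99 CPM in combination tumours, against 111, 114 and 183 CPM in p38i tumours (log2 difference -1.42, SE 0.301). P38i col6 was the highest, and the rule for naming required col5 and 3-3 to lie above each combination tumour as well. Without col6 the CCDC69 difference was -1.14. SRF, a transcription factor of cytoskeletal and immediate early genes, held 134, 92.9 and 126 CPM in combination tumours, against 180.0, 189 and 325 CPM in p38i tumours (log2 difference -0.98, SE 0.215). Without col6 the SRF difference was -0.64. SLC39A4, a zinc importer, held 12.6, 7.93 and 8.47 CPM in combination tumours, against 21.5, 15.7 and 48.7 CPM in p38i tumours (log2 difference -1.58, SE 0.353), and -0.94 without col6. For SRF and SLC39A4 col6 was therefore far above the other p38i tumours, and the difference was smaller without it. All 15 named genes on the lower side had an edgeR adjusted p of 0.575.

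NARS, the asparaginyl-tRNA synthetase, held 99.9, 78.8 and 75.3 CPM in combination tumours, against 142, 139 and 152 CPM in p38i tumours (log2 difference -0.77, SE 0.164, DESeq2 adjusted p = 0.0341). For NARS the gap between the groups was wider than the range of the p38i tumours. PFDN6, a subunit of the prefoldin chaperone, held 26.96, 19.4 and 27.3 CPM in combination tumours, against 42.3, 45.5 and 58.96 CPM in p38i tumours (log2 difference -1.004, SE 0.214). BAX, which permeabilises mitochondria in apoptosis, held 73.3, 67.8 and 71.5 CPM in combination tumours, against 95.8, 103 and 120.4 CPM in p38i tumours (log2 difference -0.59, SE 0.143). EZH2i tumours held 95.5, 93.2 and 82.1 CPM of BAX and control tumours 95.7, 82.6 and 91.01 CPM, so the combination was the lowest of the 4 groups.

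UGT2B7, a glucuronosyltransferase, was among the named lower genes the one for which col6 was the lowest p38i tumour, with 3.81, 4.18 and 2.51 CPM in combination tumours, against 11.2, 11.6 and 8.32 CPM in p38i tumours (log2 difference -1.54, SE 0.377). The tRNA-modifying enzymes CDKAL1 and QTRT1 differed by -0.73 and -0.88 on the log2 scale, the retinol saturase RETSAT by -0.70, the succinyl-CoA ligase subunit SUCLG1 by -0.60 and the GMP reductase GMPR by -1.11. The pyroglutamyl peptidase PGPEP1 differed by -0.69 and GPATCH11, a G-patch protein, by -0.54.

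A pair of libraries, p38i col6 and combination 9-1, stood at the edge of their groups for many of these genes. Col6 was the highest p38i library for 364 of the 536 genes with an unadjusted p under 0.05 (67.9%), for 14 of the 15 named lower genes and for 37.8% of all genes. Combination 9-1 was the lowest combination library for 348 of the 536 (64.9%), for 12 of the 15 and for 31.7% of all genes. Among the 441 genes on the higher side, 9-1 was the highest combination library for 250 (56.7%) and col6 the lowest p38i library for 214 (48.5%). Without col6 the counts at an unadjusted p under 0.05 were 299 higher and 250 lower, and without 9-1 they were 225 and 255. The part of muscle transcripts or of the column assignment in these differences was not tested.

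The targets of both compounds are proteins, and their transcripts do not check the treatment labels. EZH2 held 162, 120.4 and 133 CPM in combination tumours, against 127, 172 and 213 CPM in p38i tumours, and these ranges overlap (log2 difference -0.31, SE 0.198, edgeR adjusted p = 0.733). EED held 104, 112 and 96.02 CPM in combination tumours, against 69.2, 73.96 and 90.8 CPM in p38i tumours, with every combination tumour higher (log2 difference 0.41, unadjusted p = 0.0413, edgeR adjusted p = 0.616). SUZ12 differed by -0.09 (95% interval -0.39 to 0.20) and the alternative catalytic subunit EZH1 by -0.05 (95% interval -0.53 to 0.43). Of 14 PRC2 subunits tested, 5 were higher and 9 lower, with a median log2 difference of -0.13, against 0.01 over all genes, of which 51.4% were higher. The accessory subunit AEBP2 was on the higher side (0.46) and C10orf12 on the lower (-0.53), both with groups that did not overlap. MAPK14, which encodes p38 alpha, differed by -0.09 (95% interval -0.47 to 0.28) and MAPK13, p38 delta, by -0.32 (95% interval -0.72 to 0.08). MAPK12 and MAPK11 had at most 15 counts in any of these 6 libraries and were not tested.

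Of 18 genes tested that are reported elsewhere to be repressed by EZH2, 13 were higher and 5 lower, beside 51.4% higher among all genes, with a median log2 difference of 0.19 that was 0.01 without combination 8-1. TIMP3, a metalloproteinase inhibitor, held 2752, 4011 and 1728 CPM in combination tumours, against 1356, 2177 and 2007 CPM in p38i tumours (log2 difference 0.62, edgeR adjusted p = 0.636). NKX2-5, a cardiac homeobox gene, held 0.293, 3.74 and 4.39 CPM in combination tumours, against 1.02, 1.104 and 0.979 CPM in p38i tumours, with 8-1 below and 9-1 and 9-2 above p38i. FBXO32, a ubiquitin ligase gene, went the other way (-0.42) with groups that did not overlap. Among 20 genes for demethylases and acetylases of lysine 27 and for Polycomb complex 1, 11 were higher and 9 lower (median 0.03), with PHC3 at 0.72, KDM6A at 0.33 and KDM6B at 0.39. Of 11 HOX genes 5 were higher and 6 lower (median -0.04, and 0.17 without col6), with HOXA3 at 1.45 (0.96 without col6), HOXB9 at -0.89 (-0.19 without col6) and HOXB3 at 0.46. No member of any of the 36 pathway lists passed the threshold, and the members named here and below are those of each list with the smallest unadjusted p. Leaving out 1 of the 6 libraries moved the median of 34 of the 36 lists by over 1.5 times or past 0, and of 16 of them past 0. Of 163 named genes, 68 moved that far and 7 of these changed sign.

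In the p38 pathway 16 of 25 members were higher and 9 lower (median 0.11). ATF2, a transcription factor phosphorylated by p38, held 50.4, 65.4 and 59.6 CPM in combination tumours, against 40.6, 40.8 and 40.9 CPM in p38i tumours (log2 difference 0.52, SE 0.153, unadjusted p = 0.00383, edgeR adjusted p = 0.575). The p38i tumours were nearly identical and all below the combination. MAPKAPK5, a kinase activated by p38, held 65.6, 85.6 and 68.1 CPM in combination tumours, against 51.8, 40.01 and 57.98 CPM in p38i tumours (log2 difference 0.55), and the adaptor gene TAB3 differed by 0.65. Of 17 MAP kinase phosphatase and Sprouty genes, which damp MAP kinase signalling, 14 were higher (median 0.26), with DUSP14 at 0.42, SPRED1 at 0.33 and DUSP1 at 0.58. Immediate early genes had 5 higher and 11 lower of 16 (median -0.05), with JUND at -0.54 and IER2 at -0.56 against NR4A2 at 0.52. Of 7 p38-responsive cytokine and chemokine genes 5 were higher (median 0.17, 0.88 without p38i 3-3 and -0.09 without col5), CXCL2 by 1.09, CXCL8 by 0.55 and CXCL3 by 0.74, all with overlapping groups.

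MHC class II genes, which present antigen to helper T cells, had the largest median of the 36 pathway lists, 1.55 on the log2 scale, with 7 of 8 members higher. The median was 0.93 without combination 9-1, 1.22 without col6 and 2.01 without combination 9-2. By library, the median log2 CPM of the list was 3.35, 3.83 and 1.54 in combination 8-1, 9-1 and 9-2, against 2.38, 2.41 and 1.60 in p38i 3-3, col5 and col6. Combination 9-2 was thus below every p38i tumour, and the groups overlapped. HLA-DPA1 held 5.86, 11.2 and 2.82 CPM in combination tumours, against 0.682, 2.21 and 0.734 CPM in p38i tumours (log2 difference 2.44, SE 0.846, unadjusted p = 0.0124, edgeR adjusted p = 0.582). CD74, the invariant chain, held 95.2, 162 and 28.2 CPM in combination tumours, against 42.9, 51.3 and 20.8 CPM in p38i tumours (log2 difference 1.33, SE 0.673). Combination 9-2 lay within the p38i range for CD74 while 8-1 and 9-1 lay above it, so the groups overlapped. HLA-DPB1 had a similar difference (2.12, SE 1.11) at 0.628 to 3.52 CPM in combination tumours, against 0.245 to 1.02 CPM in p38i tumours. Reads of HLA genes can be split among similar copies. The median log2 difference of the class was -1.56 for EZH2i against control. It was -2.34 for p38i against control, a comparison that shares the p38i libraries. Control tumours 1-1, 1-3 and 2-1 had list medians of 3.19, 3.56 and 4.66 log2 CPM. Every p38i tumour was thus below every control, and no combination tumour was above the control range. MHC class I genes were balanced, with 8 of 16 higher (median 0.01); B2M, the light chain, was on the higher side (0.49) and HLA-E (-0.56) and CALR (-0.28) on the lower.

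BMP signalling and ID genes were mostly higher, 14 of 17, with a median of 0.40 (0.26 without combination 9-2). ID1, an inhibitor of helix-loop-helix transcription factors, held 82.9, 172 and 70.3 CPM in combination tumours, against 30.3, 30.6 and 43.3 CPM in p38i tumours (log2 difference 1.64, SE 0.463, unadjusted p = 0.00427, edgeR adjusted p = 0.575). ID3 held 167, 190.2 and 66.5 CPM in combination tumours, against 40.9, 84.7 and 42.6 CPM in p38i tumours (log2 difference 1.33, SE 0.507), with 9-2 inside the p38i range. SMAD6, an inhibitory SMAD, held 12.01, 9.69 and 12.2 CPM in combination tumours, against 7.16, 8.003 and 8.07 CPM in p38i tumours (log2 difference 0.54). All 3 genes were well below the controls in p38i, with log2 differences of p38i against control of -2.66, -2.66 and -1.37; that comparison shares the p38i libraries. TGF-beta and activin genes had 15 of 23 higher (median 0.15), with LTBP2 at 0.60, FST at 0.41 and INHBB at 1.04.

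**Figure D3:**
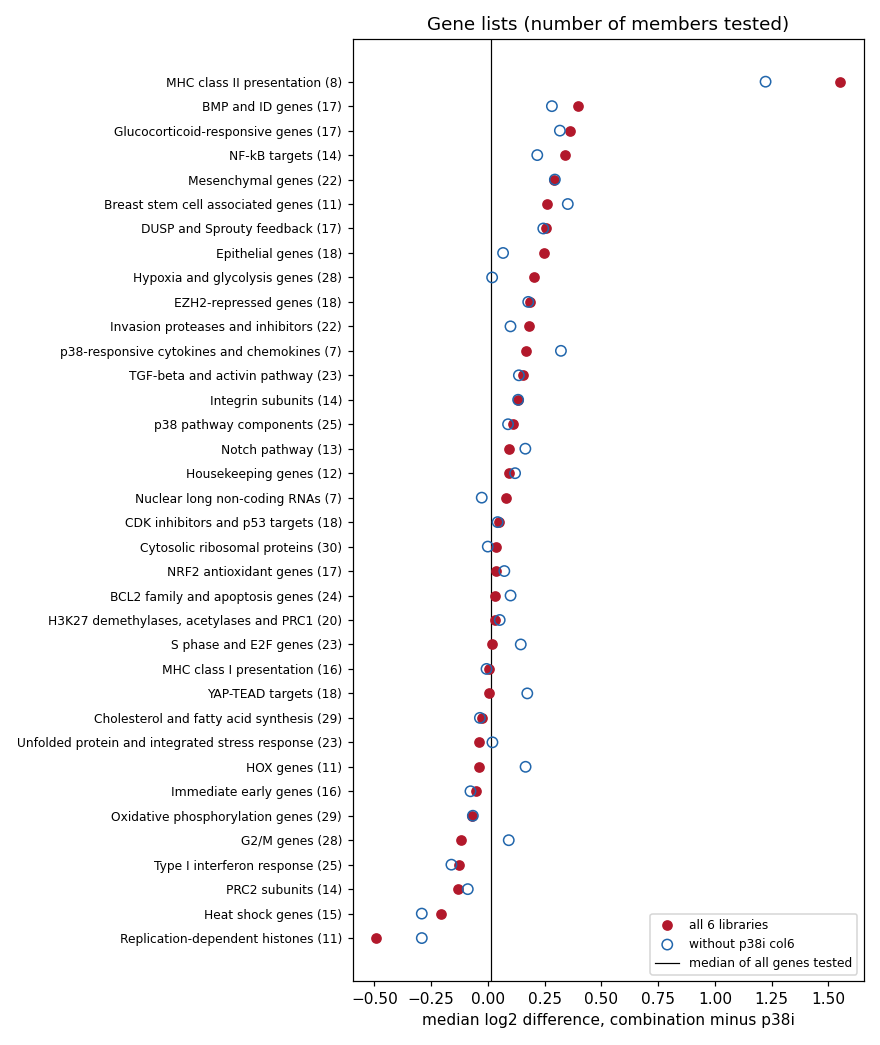
Median log2 difference, combination minus p38i (horizontal axis), of 36 pathway lists with the number of members tested in brackets; filled points use all 6 libraries, open points leave out p38i col6, and the line is the median of all genes tested (0.01). MHC class II genes stand alone at 1.55, most lists lie between -0.2 and 0.4, and histones lie lowest at -0.49 with all 6 libraries but at -0.29 without col6, beside heat shock genes.

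Inflammatory, glucocorticoid and mesenchymal genes also had more members on the higher side than the 51.4% of all genes. Of 14 NF-kB targets 12 were higher (median 0.34, 0.22 without col5 or col6 and 0.60 without 3-3), and TNFAIP2 held 101, 216 and 97.3 CPM in combination tumours, against 48.4, 19.6 and 75.1 CPM in p38i tumours (log2 difference 1.53, SE 0.672), with NFKB1 at 0.31 and SOD2 at 0.42. Glucocorticoid-responsive genes had 14 of 17 higher (median 0.36, and 0.23 without combination 9-1 or 9-2), with the transcription factor CEBPB at 0.59, the kinase SGK1 at 0.36 and the co-chaperone FKBP4 at -0.59. Of 22 mesenchymal genes 16 were higher (median 0.29, and 0.17 without combination 8-1). Fibroblast markers were on the same side, with a median of 0.39 over the 7 tested, and their part in the mesenchymal difference was not tested. SNAI2, a repressor of epithelial genes, held 57.4, 59.00 and 51.5 CPM in combination tumours, against 37.5, 28.98 and 38.9 CPM in p38i tumours (log2 difference 0.67, SE 0.197, unadjusted p = 0.00378, edgeR adjusted p = 0.575), with groups clearly apart. SNAI1 differed by 1.30 (0.82 without col5 and 2.02 without col6) and fibronectin, FN1, by 0.74. Of 18 epithelial genes 12 were higher as well (median 0.25, 0.07 without col6 and -0.02 without combination 8-1), with CLDN4 at 0.50 and CLDN7 at -0.27. Breast stem cell associated genes, which include ID1 and ID3, had 10 of 11 higher (median 0.26), with KLF4 at 0.98.

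Tissue factor, F3, which starts coagulation and is a YAP-TEAD target, held 224, 426 and 333 CPM in combination tumours, against 226, 69.5 and 138 CPM in p38i tumours (log2 difference 1.18, SE 0.386). P38i 3-3 overlapped the lowest combination tumour. The YAP-TEAD list as a whole was balanced, 10 higher and 8 lower of 18 (median 0.01), although the coactivator genes WWTR1 (0.52) and YAP1 (0.49) were on the higher side. In the Notch pathway 9 of 13 were higher (median 0.09); the ligand gene JAG1 held 261, 323 and 232 CPM in combination tumours, against 170.1, 169 and 209.7 CPM in p38i tumours (log2 difference 0.57, SE 0.184, unadjusted p = 0.00721, edgeR adjusted p = 0.582). DLL4 stood at 0.84 (0.40 without combination 9-1) and HEY1 at 1.02 (0.06 without combination 9-2). Integrin subunits had 9 of 14 higher (median 0.13), with ITGAV at 0.42, ITGA10 at 0.37 and ITGB1 at -0.25. Of 22 invasion proteases and inhibitors 13 were higher (median 0.18), with SERPINE2 at 0.67 and CTSL at 0.74 on the higher side and the membrane protease MMP14 at -0.80 on the lower. Hypoxia and glycolysis genes had 21 of 28 higher (median 0.20, and 0.02 without col6), with PFKFB4 at 0.63, VEGFA at 0.78 and ANGPTL4 at 0.51.

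On the lower side stood heat shock and histone genes. Of 15 heat shock genes 12 were lower (median -0.21, and -0.12 without p38i 3-3). HSP90AB1, a constitutive chaperone, held 2216, 1789 and 2369 CPM in combination tumours, against 2928, 2840.1 and 3227 CPM in p38i tumours (log2 difference -0.50, SE 0.158, unadjusted p = 0.00672, edgeR adjusted p = 0.575), and the groups did not overlap. HSPA4 differed by -0.43 and DNAJB1 by -0.50. Of 11 replication-dependent histone genes 7 were lower (median -0.49, -0.29 without col6, -0.26 without combination 9-1 and -0.81 without combination 8-1). The linker histone gene HIST1H1C held 138, 79.7 and 92.9 CPM in combination tumours, against 151, 147 and 209.9 CPM in p38i tumours (log2 difference -0.72), and HIST1H4C and HIST2H2AC differed by -0.81 and -1.30; histone genes have near-identical copies that counting may not separate. G2/M genes had 18 of 28 lower (median -0.12), but the median was 0.09 without col6. The mitotic kinesin gene KIFC1 held 67.4, 54.8 and 68.7 CPM in combination tumours, against 80.4, 98.8 and 252 CPM in p38i tumours (log2 difference -1.18), with col6 far above the rest (-0.49 without it). SKA1 stood at -0.81 and MKI67 at -0.47, which was -0.07 without col6. S phase genes were even, 13 higher and 10 lower of 23 (median 0.02), with MCM3 at -0.38, E2F1 at -0.45 and RRM1 at -0.23.

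Apoptosis genes went both ways, 13 higher and 11 lower of 24 (median 0.03). Besides BAX, the anti-apoptotic BCL2 held 3.22, 4.403 and 3.45 CPM in combination tumours, against 4.43, 9.93 and 13.9 CPM in p38i tumours (log2 difference -1.35, SE 0.4103), and BIRC2, an inhibitor of apoptosis, stood at 0.44. A pro-apoptotic and an anti-apoptotic member were thus both lower. CDK inhibitors and p53 targets had 11 of 18 higher (median 0.05), with CDKN2D at -0.47, SESN2 at -0.49 and CDKN1A at 0.45. The unfolded protein and integrated stress response was even, 11 higher and 12 lower of 23 (median -0.04): the endoplasmic reticulum chaperone genes SDF2L1 (-0.82) and HSP90B1 (-0.46) were lower, while CEBPB was higher. SLC7A11, the cystine importer, held 81.8, 104 and 90.7 CPM in combination tumours, against 56.6, 29.5 and 41.1 CPM in p38i tumours (log2 difference 1.12, SE 0.439), and in its NRF2 list 10 of 17 were higher (median 0.04), with ME1 at 0.58 and PGD at -0.52. Interferon response genes had 16 of 25 lower (median -0.13), with IFIT1 at -0.56, OAS3 at -0.61 and IFI35 at 0.63.

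Housekeeping and biosynthetic lists were near the median of all genes. Cholesterol and fatty acid genes had 19 of 29 lower (median -0.03; LSS -0.44, FDPS -0.95 and MVD -0.84). Oxidative phosphorylation genes had 20 of 29 lower (median -0.07; SDHD 1.03 but 0.25 without combination 9-1, ATP5G3 -0.30 and UQCRB -0.30). Ribosomal proteins had 21 of 30 higher (median 0.04; RPL27 0.57, RPS6 0.47 and RPS27A -0.53). Nuclear long non-coding RNAs had 4 of 7 higher (median 0.08; TUG1 0.21, HOTAIR 0.94 but 0.32 without col6 and 2.16 without col5, and GAS5 0.27). Housekeeping genes had 9 of 12 higher (median 0.09; YWHAZ -0.20, GAPDH 0.32 and SDHA 0.25).

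Without the p38 inhibitor, EZH2i against control called 27 genes (0.216%), 11 higher (0.0879%) and 16 lower (0.128%), by the same edgeR fit. That contrast shares no library with combination against p38i. Of the 27 genes, 5 had the same direction in both contrasts and 22 the opposite one, while among all genes tested 6050 (48.3%) had the same direction. The count of 27 changed with most libraries left out, those outside the contrast included. It was 2 without EZH2i 5-4 or 6-1, 4 without control 1-3, 6 without combination 9-1 or 9-2 or p38i col5, 7 without control 1-1, 10 without p38i 3-3, 11 without combination 8-1, 55 without EZH2i 5-3 and 125 without control 2-1. Without control 2-1, 41 of the 125 genes had the same direction in both contrasts. By direction, 9 of the 11 genes higher with EZH2i and 13 of the 16 lower with EZH2i were on the opposite side in combination against p38i. Their median absolute log2 difference in combination against p38i was 0.36, beside 0.21 over all genes tested. The 5 genes that kept their direction were SGK1, SRPX, H6PD, SLC37A2 and LGALS9.

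SGK1, a kinase induced by glucocorticoids, held 56.3, 61.6 and 64.95 CPM in combination tumours, against 48.7, 49.4 and 44.3 CPM in p38i tumours, and 60.6, 62.6 and 65.5 CPM in EZH2i tumours, against 36.2, 34.2 and 35.3 CPM in controls. It was higher in every tumour with the EZH2 inhibitor than in any without it, by 0.36 (SE 0.143) on top of p38i and by 0.84 (SE 0.146) on top of vehicle. SRPX, a secreted sushi-repeat protein gene, differed by 0.34 and 0.94 in these contrasts, and H6PD, which makes NADPH in the endoplasmic reticulum, by -0.36 and -0.82. LGALS9, galectin 9, held 2.93, 2.64 and 0.628 CPM in combination tumours, against 3.41, 3.31 and 3.67 CPM in p38i tumours, and 0.813, 0.249 and 1.75 CPM in EZH2i tumours, against 14.2, 7.51 and 5.69 CPM in controls; SLC37A2 differed by -0.10 and -1.49.

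FKBP5, a co-chaperone of steroid receptors, held 35.2, 47.3 and 48.6 CPM in combination tumours, against 20.5, 39.2 and 58.2 CPM in p38i tumours, and 17.1, 17.9 and 30.6 CPM in EZH2i tumours, against 193, 142 and 84.6 CPM in controls. The difference was 0.14 (95% interval -0.64 to 0.92) in combination against p38i and -2.69 in EZH2i against control. CXCR4, the receptor of the chemokine CXCL12, held 102, 108 and 234 CPM in combination tumours, against 209, 182 and 189.6 CPM in p38i tumours, and 181, 236 and 188 CPM in EZH2i tumours, against 66.6, 59.4 and 67.3 CPM in controls. Combination 8-1 and 9-1 lay well below the p38i range and 9-2 above it, and all treated tumours lay above the controls. Of the other genes higher with EZH2i, ADTRP stood at -0.56, ADAMTS6 at -0.49, ST3GAL6 at -0.40, CSRP2 at -0.36, HSPA1A at -0.17, ZNF521 at -0.14 and SLC5A3 at -0.09 in combination against p38i. Of those lower with EZH2i, C19orf18 stood at 0.70, CLEC2D at 0.35, METTL7A at 0.21, CC2D2A at 0.27, C9orf89 at 0.32, CYB561 at 0.27, NFIC at 0.07 and ETV6 at 0.41.

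**Figure D4:**
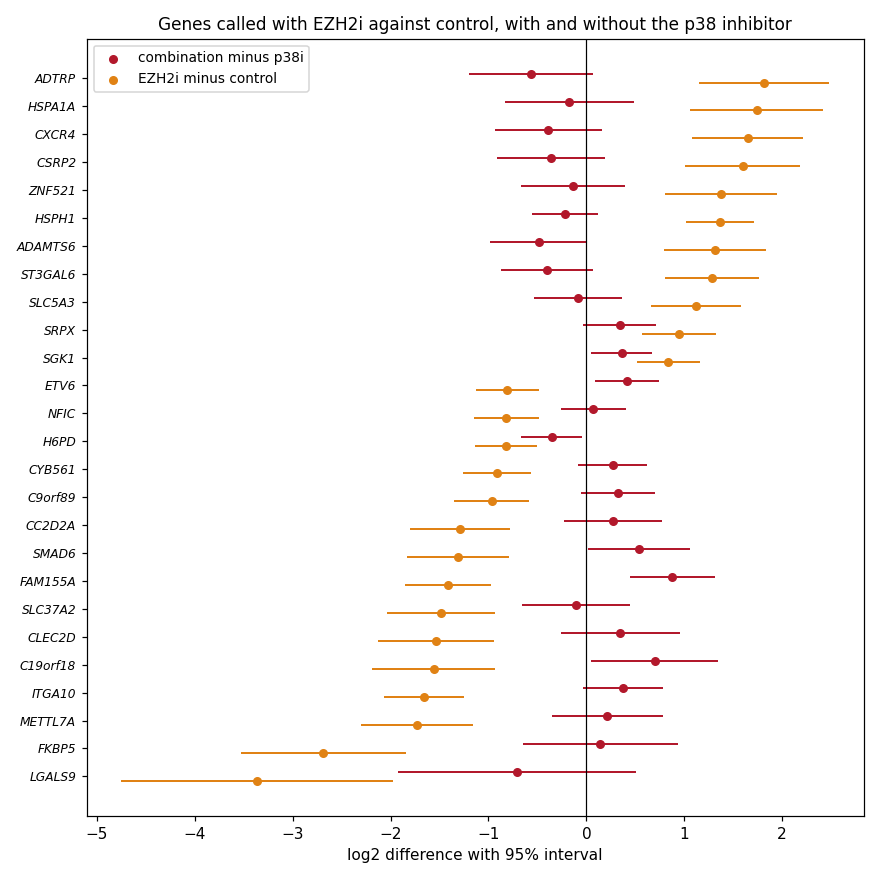
Log2 difference with its 95% interval (horizontal axis) of genes called with EZH2i against control and named in the text (rows); red points are combination minus p38i and orange points EZH2i minus control. The orange points lie away from 0 because that contrast chose the genes. For most genes the red point lies on the other side of 0, and most red intervals include 0.

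The difference between the 2 effects was tested for every gene as an interaction, combination minus p38i minus the difference of EZH2i and control. It called 3 genes (0.024%), of which 2 were positive (0.016%) and 1 negative (0.00799%), and 1644 (13.1%) had an unadjusted p under 0.05. The count was 42 without EZH2i 5-3, 12 without control 2-1, 8 without p38i col6 and 7 without control 1-1. ITGA10, a collagen-binding integrin subunit, held 84.98, 115 and 83.2 CPM in combination tumours, against 79.4, 69.8 and 69.97 CPM in p38i tumours, and 83.3, 68.9 and 102 CPM in EZH2i tumours, against 314, 256 and 231 CPM in controls. All 9 treated tumours lay well below the controls, and the interaction was 2.04 (SE 0.263, edgeR adjusted p = 0.00815). For FAM155A, whose levels are given above, the difference was 0.88 with the p38 inhibitor and -1.42 without it, an interaction of 2.30 (SE 0.283, edgeR adjusted p = 0.00815). HSPH1, a heat shock chaperone, held 195, 211 and 233 CPM in combination tumours, against 305, 217 and 220.2 CPM in p38i tumours, and 322, 326 and 312 CPM in EZH2i tumours, against 127, 112 and 135 CPM in controls. Controls were the low group for HSPH1, and the interaction was -1.58 (SE 0.221, edgeR adjusted p = 0.0142). It was not called without combination 8-1 (edgeR adjusted p = 0.0532), combination 9-1 (0.0822) or control 1-3 (0.112). For all 3 genes the difference of combination and p38i was the smaller of the 2 effects, at 0.37, 0.88 and -0.22. An interaction and combination against p38i share libraries, so they are not separate evidence.

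**Figure D5:**
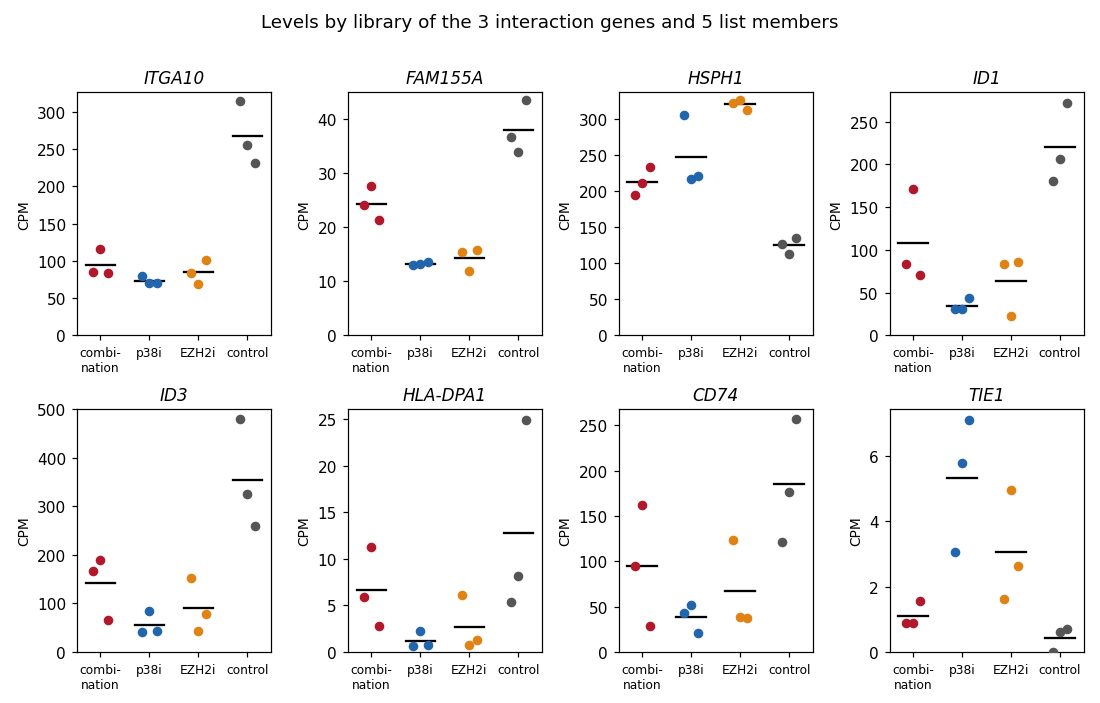
Level in CPM (vertical axes, each from 0) of the 3 interaction genes and of 5 list members in the 3 libraries of each group (points), with group means (lines). ITGA10, FAM155A, ID1 and ID3 are highest in controls, HSPH1 is lowest in controls, the MHC class II genes HLA-DPA1 and CD74 vary among tumours of 1 group, and TIE1 is highest in p38i.

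Genes of other cell types were few in these libraries, and in bulk tumours fewer cells of a type and less RNA per cell cannot be told apart. Host cells of these tumours are mouse cells, while the reads were aligned to the human genome. The marker counts therefore cannot be read as host cell content. Whether they came from mouse reads or from the tumour cells themselves was not tested. Fibroblast markers, 11 genes, held 0.0551% to 0.115% of combination counts and 0.0287% to 0.0916% of p38i counts, which overlap. The median log2 CPM of the 7 tested was 4.74, 4.32 and 4.35 in combination 8-1, 9-1 and 9-2, against 3.19, 3.85 and 3.12 in p38i 3-3, col5 and col6, and these did not overlap. Their median log2 difference was 0.39, and 0.16 without 3-3, 0.23 without 9-2 and 0.76 without col5. PDGFRB, a mural and fibroblast receptor, held 26.1, 19.4 and 19.8 CPM in combination tumours, against 8.52, 12.7 and 7.095 CPM in p38i tumours (log2 difference 1.20, SE 0.455). Macrophage and leukocyte markers held 0.00295% to 0.0037% of combination counts and 0.00267% to 0.00619% of p38i counts, and endothelial markers 0.00204% to 0.00331% and 0.00234% to 0.00369%. TIE1, an endothelial receptor gene, held 0.879, 0.881 and 1.57 CPM in combination tumours, against 3.07, 5.795 and 7.095 CPM in p38i tumours, 1.63, 4.97 and 2.62 CPM in EZH2i and 0, 0.6004 and 0.711 CPM in control tumours, with every combination tumour below every p38i tumour (log2 difference -2.27, SE 0.582, unadjusted p = 0.00143, edgeR adjusted p = 0.575). The whole endothelial list did not share this separation. Pericyte and smooth muscle markers held 0.00401% to 0.00603% of combination counts and 0.00443% to 0.00568% of p38i counts, with MCAM at -1.24. Neutrophil markers had at most 2 counts per combination library and 0 in each p38i library. Erythroid markers held 0.000175% to 0.00228% of combination counts and 0.000304% to 0.00195% of p38i counts, adipocyte markers 0.000262% to 0.00056% and 0.000122% to 0.000483%, and luminal and keratinocyte markers 0.0155% to 0.0205% and 0.0164% to 0.0188%. Of the 17 muscle markers, 10, 4 and 10 were at 0 counts in combination 8-1, 9-1 and 9-2, against 10, 3 and 1 in p38i 3-3, col5 and col6, and MYH2 and PVALB were at 0 in each combination library. The muscle gene TTN held 53.3, 47.6 and 75.3 CPM in combination tumours, against 66.8, 97.1 and 926 CPM in p38i tumours. The part of these cell types in the gene differences was not tested.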

How the data were processed

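RNA from 12 xenograft tumours was sequenced. Each library was made from 1.3 µg of total RNA, per the labels' protocols, which name both a SMARTER mRNA kit and QuantSeq. The submitters' processing notes list Trim Galore 0.5.0, STAR 2.6.0 and hg19; the counting program, annotation, strand use and any removal of mouse reads are not given in the sources used here. The deposited values are raw counts per gene symbol (25369 symbols; 3 lines without a name held 0 counts). Columns were joined to samples by reading the column number in the labels as the header name; read as a position, it would give other groups.

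Levels are CPM over library sizes with TMM scaling (trimmed mean of M values), computed here from the deposited counts. Genes were kept by filterByExpr (12514), and all 12 libraries entered a single quasi-likelihood fit (edgeR 4.0.16, R 4.3.3) with the 4 groups as terms. F tests were two-sided, with Benjamini-Hochberg adjustment across these genes and a threshold of 0.05. SE and 95% intervals come from this fit; its biological coefficient of variation, the relative spread between tumours of 1 group, was 0.219. The code was tested on simulated data with known changes. At this depth and group size it called most of the large ones and none of the smallest, so a count of 0 does not show that small changes are absent. The simulation had no outlying library such as col6, so it does not show that large changes would have been called here. SERPINA3, with a log2 difference of 2.54, had an edgeR adjusted p of 0.407. No 2 libraries agreed within sampling noise. Ranges of summed marker shares are over libraries, and their precision is limited by counting error and by the spread between tumours.

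Named genes were the called ones first and, since none was called, in each direction the 15 with the smallest unadjusted p among genes with a mean of at least 5 CPM and groups that did not overlap. The rule also took up to 3 members of each list by unadjusted p (36 pathway lists and 10 cell type lists), the compounds' targets and their partners, up to 10 called genes per direction in EZH2i against control and in the interaction, and the members of any count of 5 or fewer. Members and lists were chosen with earlier results of these data known. Alternatives were DESeq2 1.42.0, limma-voom 3.58.1, library totals or RLE size factors as scaling, other filters, edgeR without its robust option, a fit of the 6 libraries alone, and leaving out each library. Promoter sequences are from RefSeq (GRCh38.p14); no coordinates of the deposited files are given. Some genes that the rule names are not reported here.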

Additional observations from a re-analysis of the deposited data

Results flagged for a closer look

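For 3 genes the difference made by the EZH2 inhibitor was not the same with and without the p38 inhibitor, by edgeR's test of that difference over all 12514 genes. ITGA10 had an interaction of 2.04 on the log2 scale (edgeR adjusted p = 0.00815), from 0.37 in combination against p38i and -1.66 in EZH2i against control. FAM155A had an interaction of 2.30 (edgeR adjusted p = 0.00815), from 0.88 and -1.42 in the same contrasts. HSPH1 had an interaction of -1.58 (edgeR adjusted p = 0.0142), from -0.22 and 1.36. All 3 combination tumours were above all 3 p38i tumours for ITGA10 and FAM155A, while the groups overlapped for HSPH1.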

How the results depend on the processing

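No paired analysis was possible because the groups share no replicate numbers in the labels; the tumour codes name tumours only. Combination against p38i called 0 genes with edgeR under total or RLE scaling, a filter of a mean of 5 CPM, without the robust option, with the 6 libraries alone and with limma-voom, and 0 to 0 with each library left out. DESeq2 called 7, and edgeR without a filter 1 (SERPINA3). For EZH2i against control (27 genes), DESeq2 called 232, limma-voom 16, edgeR without a filter 114, and edgeR with a library left out 2 to 125. Of these genes, 5 had the same direction in combination against p38i; the corresponding counts were 59 with DESeq2, 3 with limma-voom, 32 without a filter and 0 to 41 with a library left out. The interaction (3 genes) called 226 with DESeq2, 70 without a filter and 2 to 42 with a library left out. Total scaling called 18 genes for EZH2i against control. The cause of these differences was not tested.

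Log2 differences of combination against p38i that are near 0 changed sign for 7 genes when single combination or p38i libraries were left out. Their ranges were -0.21 to 0.21 for EZH1 (0.035 without combination 9-1 and 0.21 without p38i col5), -0.16 to 0.55 for FKBP5, -0.36 to 0.19 for HSPA1A, -0.18 to 0.0297 for MAPK14, -0.012 to 0.19 for NFIC, -0.23 to 0.011 for SLC37A2 and -0.26 to 0.075 for SLC5A3. Of 163 named genes under all alternatives, 2249 values kept their direction and their side of the threshold, 9 changed sign and 7 passed the threshold. Of the list medians, 591 stayed within 1 SD between libraries of their value and 11 moved further. That SD is wide for lists that vary among libraries, so their medians could move far and still stay within it. Leaving out 1 of the 6 libraries moved 34 of the 36 pathway medians by over 1.5 times or past 0. With 3 libraries a group and 2956275 counts in the shallowest of the 6, genes of a few CPM have wide intervals, and a difference that missed the threshold is not shown to be absent.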
